A study of Mus musculus with 1931 samples.

Results

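The 4 genes described here, *Pou5f1*, *Sox2*, *Nanog* and *Sall4*, encode transcription factors of the core pluripotency circuit. They were chosen by name among the 20999 genes of the deposited expression table and were followed through single cells of RtL-embryoids (rosette-to-lumen stage embryoids) and of 3 2D cultures. Of 1931 sorted wells, the 1406 in which 2500 or more genes had a value above 0 were used.

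RtL-embryoids were aggregates of mouse ESCs of 3 lines. GFP under *Oct3/4* (*Pou5f1*) control marked the Kermit ESCs, the source of GFP+ Epi-like cells. The ExE-like compartment was taken to derive from 5-Factor ESCs, in which *Cdx2*, *Tfap2c*, *Eomes*, *Gata3* and *Ets2* can be induced, and the VE-like compartment from mCherry-marked iGATA6 ESCs with a lentiviral, inducible *Gata6*. Doxycycline (DOX, 2 µg/ml) was given for 3 days and left out for 1 more day. The structures were handpicked, pooled into 1 sample and sorted onto plates 3, 4 and 5, which are technical splits of that pool.

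Well columns 1 to 8 of each plate (Epi wells) received GFP+ cells, columns 9 to 16 (VE wells) mCherry+ cells and columns 17 to 24 (ExE wells) cells stained for the surface protein CD40. This assignment of columns is a rule that the sample labels do not spell out, and it was checked with marker genes. The 2D cultures, each 1 sample, were GFP-sorted Kermit ESCs in 2i/LIF medium (ESC), mCherry-sorted iGATA6 cells in XEN medium (iXEN) and CD40-sorted 5-Factor cells in TSC medium with FGF4 and heparin (iTSC). By the study's methods the ESCs got no DOX, although the label of every well names the drug. Epi and ESC cells were thus selected for activity of a *Pou5f1* reporter, so their *Pou5f1* level is partly set by the sort. The lines behind the VE and ExE wells are not described as carrying this reporter. By the paper's gates, VE cells were also negative for GFP and CD40, and ExE cells for GFP and mCherry. Cells with a signal of the *Pou5f1* reporter were thus kept out of both kinds of wells. What this gate did to *Pou5f1* and Epi genes in these wells was not tested.

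POU5F1 (OCT4) and SOX2 bind DNA side by side at composite sites and switch on genes of the pluripotent state, among them their own genes and *Nanog*. NANOG is a homeodomain protein that stabilises naive pluripotency, and SALL4 is a zinc finger protein of ESCs that is also known from extraembryonic endoderm. In the embryo, POU5F1 is needed for the epiblast and is also present in early primitive endoderm, SOX2 is shared by epiblast and trophoblast stem cells, and NANOG is a mark of the epiblast.

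The sequences just upstream of *Nanog* and *Sox2* are shown because they carry the letters TTTGCAT (or the reverse, ATGCAAA) of the OCT motif, the motif of POU5F1 (OCT4). Capitals mark the OCT motif and, in *Nanog*, also the base after it and the SOX motif ACAATG that follows. Both windows are the 250 bases before the gene's start in RefSeq (build GRCm38.p6, plus strand), at chr6:122707239-122707488 for *Nanog* and chr3:34649745-34649994 for *Sox2*.
Nanog: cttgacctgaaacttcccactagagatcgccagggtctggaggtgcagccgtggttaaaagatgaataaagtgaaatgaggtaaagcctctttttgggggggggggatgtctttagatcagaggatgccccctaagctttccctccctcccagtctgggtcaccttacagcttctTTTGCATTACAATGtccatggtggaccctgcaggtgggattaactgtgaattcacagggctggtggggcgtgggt
Sox2: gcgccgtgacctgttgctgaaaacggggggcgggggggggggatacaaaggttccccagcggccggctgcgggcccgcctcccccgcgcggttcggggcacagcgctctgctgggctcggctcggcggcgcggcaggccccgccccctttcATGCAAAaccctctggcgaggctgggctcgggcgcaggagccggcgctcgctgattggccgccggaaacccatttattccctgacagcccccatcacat

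In *Nanog* the OCT motif begins 75 bases before the start (position -75) and the SOX motif at -67, and in *Sox2* the OCT motif, on the reverse strand, begins at -99. Over both strands of all 32851 upstream windows of this length, the OCT motif was found in 4.12% and the SOX motif in 10.7%. Both together in the spacing seen in *Nanog* were found in 2 windows, which belong to 2 starts of *Nanog*. That spelling was taken from the element known in *Nanog*, so its rarity is no finding. The window before the first *Pou5f1* start (chr17:35505782-35506031) holds neither motif, which says only that these letters are not in it, and the window before its other start holds the SOX motif at -158. A match describes letters and is not a bound site, and binding was not measured here.

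Values were TPM, which the authors computed from SMART-seq2 reads and deposited per gene. In each cell they were scaled to a sum of 10000 (TP10k), and a group's mean includes the cells at 0. TPM are corrected for transcript length, so levels of different genes can be compared. They keep no read number, and the number of genes above 0 was used in place of depth. Its median was 4823 in Epi, 5348 in VE and 5396 in ExE cells but 9093.5 in ESC, 8699 in iXEN and 8537 in iTSC cells, and plate 3 was deeper (6359.5 over its 3D cells) than plates 4 (4851) and 5 (4643). Each group is 1 sample, and no test between groups was possible, since cells and plates are not replicates. Shares of cells carry exact 95% confidence intervals (CI, Clopper-Pearson), which cover the counting error over cells only, as each group is 1 sample. SMART-seq2 adds no molecular identifiers, so molecules were not counted.

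The wells were checked with lists of lineage markers that leave out the 4 genes. Of the Epi, VE and ExE lists, the one detected to the largest extent was the group's own in 100% of Epi, 98.7% of VE, 69.7% of ExE, 100% of ESC, 100% of iXEN and 90.8% of iTSC cells. In the ExE wells the VE list led in 76 cells and the Epi list in 31, and in iTSC the Epi list led in 13. Without the 4 ExE markers that the 5-Factor line carries as transgenes, the own list led in 47.6% of ExE and 90.8% of iTSC cells. By these lists the ExE wells were not uniform, and their values are also given for the cells led by ExE genes. Single list genes were widespread in them, *Zfp42* of the Epi list in 89.5% and *Sparc* of the VE list in 68%. Only 4.53% of ExE cells had at least 3 of *Amn*, *Cubn*, *Gata4* and *Sox17*. A lead of the VE or Epi list therefore does not assign a cell to that lineage. The paper found key trophoblast genes such as *Eomes* and *Elf5* mainly in a single ExE-like subcluster. Collagen and other fibroblast genes, which would mark feeder cells, were each found in at most 2.83% of the cells of a 3D group. *Col1a1* was found in 33.1% of ESCs, but its mean there was 0.00539 TP10k. The fibroblast list as a whole summed to a median of 0 and at most 0.130 TP10k in ESCs. No doublet caller was run.

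**Figure D1:**
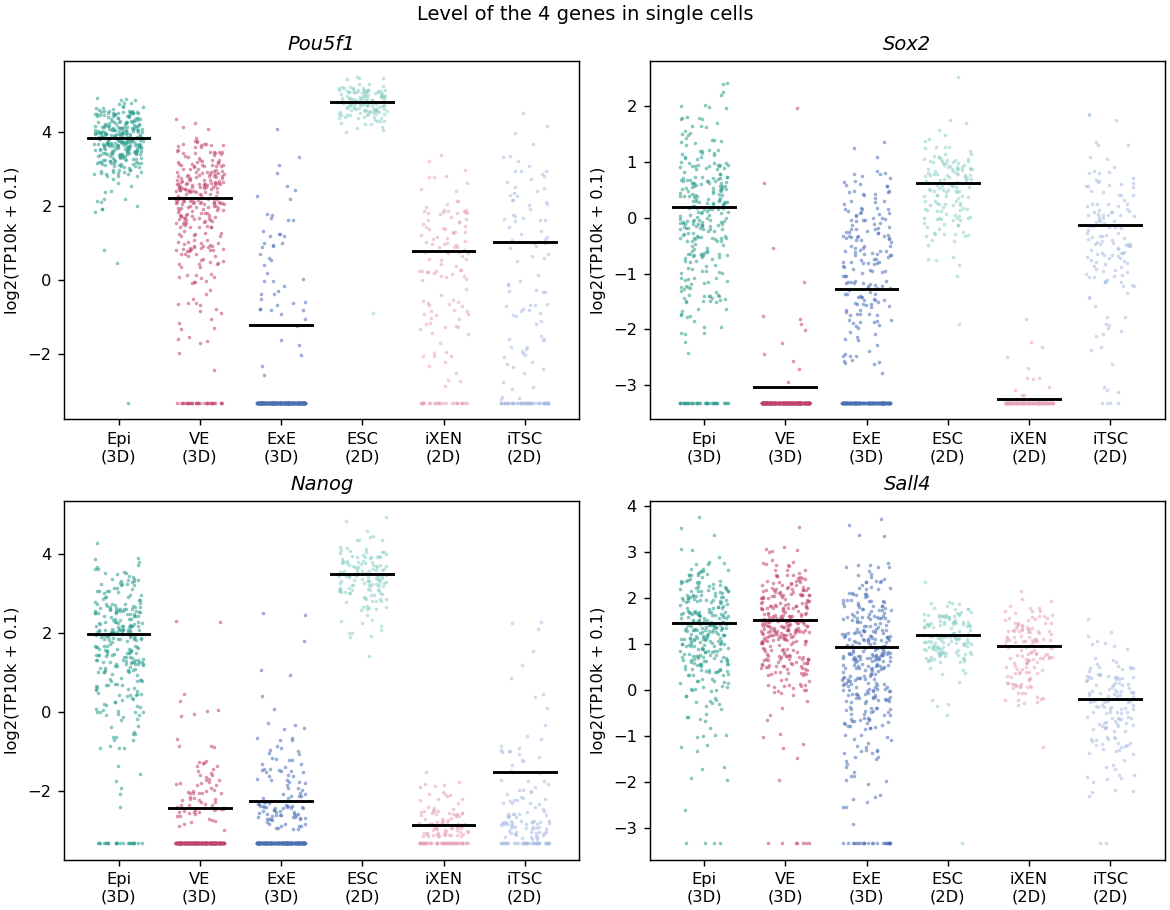
Level of the 4 genes in every cell (points) of the 6 groups, as log2(TP10k + 0.1) on the vertical axis, with a black line at the group's mean (of TP10k, zeros included). The lowest row of points in a panel is cells at 0. *Pou5f1* extends through VE cells with a mean of 4.53 TP10k while *Sox2* and *Nanog* are near the floor there, and *Sall4* is present in all 6 groups.

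*Pou5f1* was highest in the pluripotent cells, was kept in endoderm and was lowest in the ExE wells. The gene lies on chromosome 17 from 35506018 to 35510772 on the plus strand (GRCm38, positions from Gencode vM21). Its mean was 27.8 TP10k in ESC, 14.2 in Epi, 4.53 in VE, 1.93 in iTSC, 1.6 in iXEN and 0.331 in ExE cells. On single plates the mean ran from 12.1 to 15.6 in Epi, 4.15 to 4.79 in VE and 0.186 to 0.474 in ExE cells, so the plate means of these 3 groups did not overlap. The neighbours iTSC and iXEN were sampled once each, and their order has no measured spread.

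Nearly every Epi cell had *Pou5f1* (99.7%, 95% CI 98.2% to 100%; 1 cell was at 0), and all ESCs did. The Epi cells ranged from 0 to 29.6 TP10k with a median of 13.5, and ESCs had a median of 27.5 and a highest value of 43.9. The ESC mean was 1.96-fold that of Epi cells (log2 Epi over ESC -0.97, -1.20 to -0.83 on single plates). Between 3D and 2D the culture, the plates and the libraries all changed at once, and their parts cannot be told apart.

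In the VE wells *Pou5f1* was detected in 90.8% of the cells (95% CI 87% to 93.7%), with 92.8%, 88.8% and 90.7% on plates 3, 4 and 5. The cells ranged from 0 to 19.9 TP10k with a median of 4.09, and 81.6% reached 1 TP10k. The Epi mean was 3.12-fold higher (log2 1.64, 1.54 to 1.70 on single plates), and the VE mean was 13.3-fold that of the ExE wells (log2 3.74, 3.11 to 4.56). Levels of VE and Epi cells overlapped. Of the VE cells, 73 (23.2%, 95% CI 18.6% to 28.2%) reached 6.71 TP10k, the 5th percentile of Epi cells, and 26 reached 10.5 TP10k, their first quartile.

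The VE cells with *Pou5f1* had endoderm genes as the group did. Of the VE cells with *Pou5f1*, 98.6% had at least 3 of *Amn*, *Cubn*, *Gata4* and *Sox17*, and 84.3% had all 4. This is near the base rate, as 97.8% of all VE cells had at least 3. *Amn* and *Cubn* encode the endocytic receptor pair of visceral endoderm, and *Gata4* and *Sox17* regulators of endoderm fate. Of the same cells 94.8% had none of *Tdgf1*, *Gdf3* and *Fgf4*, signalling genes of pluripotent cells, and 1 cell had all 3. These 3 were picked as Epi markers that stay in Epi cells. In the VE wells they were found in 0.952%, 4.44% and 0.317% of cells, against 95.5%, 87.9% and 86.6% of Epi cells. Other genes of the Epi list were common in the VE cells with *Pou5f1*. *Dppa5a* was found in 100% of them, *Zfp42* in 89.2%, *Utf1* in 83.6%, *Tcl1* in 42% and *Klf2* in 4.55%. The mean of *Pou5f1* in the VE cells led by endoderm genes was 4.52 TP10k, close to that of all VE cells, and the 2 VE cells led by Epi genes averaged 11.3 TP10k.

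The 29 VE cells without *Pou5f1* still had endoderm genes, although each of the 11 VE markers was found in a smaller share of them (by 3.45 to 39.2 percentage points, median 9.30). *Cubn* was found in 27 of them and *Gata4* in 26. *Sox17* was found in 62.1% of these cells and in 89.2% of those with *Pou5f1*, and *Sox7*, another SOX factor of endoderm, in 51.7% and 90.9%. Of the 8 Epi markers, 7 were found in a larger share of the cells with *Pou5f1* and *Klf2* in a smaller one (4.55% against 6.90%), with a median difference of 5.90 percentage points. The widest gap was that of *Tcl1*, a coactivator of AKT kinase, found in 6.90% of the cells without and 42% of the cells with *Pou5f1*. *Utf1*, a chromatin factor of ESCs, was found in 58.6% and 83.6%, and *Zfp42* in 79.3% and 89.2%. The cells without *Pou5f1* had fewer genes detected (median 4784 against 5437), and the part of depth in these differences was not tested.

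The 2D endoderm culture also kept *Pou5f1*, at a lower level. It was detected in 80.9% of iXEN cells (95% CI 73.4% to 87%), with a median of 1.04 and a highest value of 10.3 TP10k. Every iXEN cell with *Pou5f1* had at least 3 of the 4 endoderm genes, as did 99.3% of all iXEN cells, and 80.7% had none of *Tdgf1*, *Gdf3* and *Fgf4*. Of the other Epi markers, *Dppa5a* was found in 100% of these cells, *Zfp42* in 99.1% and *Utf1* in 94.7%. *Tcl1* and *Klf2* were found in 25.4% and 10.5%. In the 27 iXEN cells without *Pou5f1*, the first 3 were near as common, *Dppa5a* and *Zfp42* in 96.3% and *Utf1* in 85.2%. *Tcl1* and *Klf2* were each found in 3.70% of them. The VE mean of *Pou5f1* was 2.81-fold that of iXEN (log2 1.49, 1.37 to 1.57 on single plates). The share was lower in iXEN although more genes were detected per cell. Among cells with 5000 to 8000 genes it was 74.3% of 35 iXEN cells and 93.1% of the VE cells. No iXEN cell reached the first quartile of Epi cells, and 5 reached their 5th percentile.

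**Figure D2:**
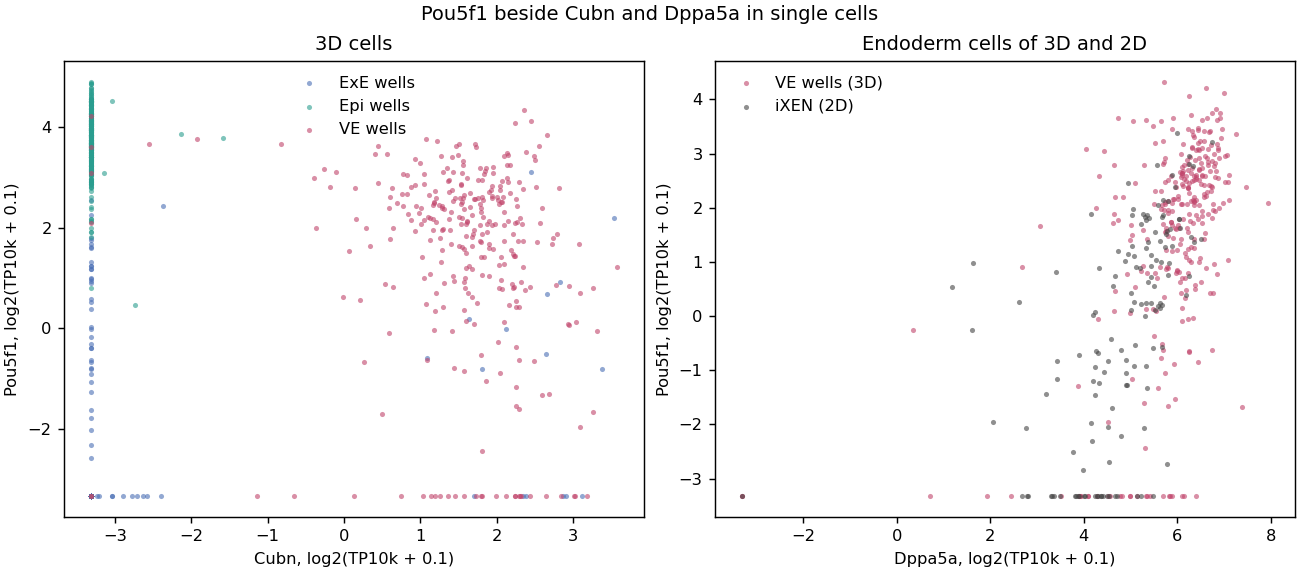
*Pou5f1* (vertical axes) against *Cubn* in the 3D cells (left) and against *Dppa5a* in VE and iXEN cells (right), each point 1 cell and all axes log2(TP10k + 0.1). VE cells have both *Pou5f1* and *Cubn*, most Epi cells lie at 0 for *Cubn*, and *Pou5f1* and *Dppa5a* are high in the same endoderm cells, with Spearman's rho of 0.48 in VE and 0.68 in iXEN.

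Within the endoderm cells, the level of *Pou5f1* went with that of *Dppa5a*, a gene of ESCs and germ cells that encodes a small KH domain protein. Spearman's rho across cells was 0.48 in VE (0.42 to 0.53 on single plates) and 0.68 in iXEN, beside 0.15 in Epi and 0.10 in ESC cells. For *Zfp42* (REX1), a zinc finger gene of naive cells, it was 0.24 in VE and 0.33 in iXEN cells, and for *Utf1* 0.11 and 0.39. For the endoderm gene *Gata4* it was 0.14 and 0.13. Cells of a group come from 1 sample and each cell's values share 1 scaling. *Pou5f1* and *Dppa5a* themselves went weakly with the number of genes detected (rho 0.13 and 0.12 in VE, 0.15 and 0.11 in iXEN), and these values describe the libraries at hand.

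The ExE wells held little *Pou5f1*. It was detected in 51 cells (14.4%, 95% CI 11% to 18.6%), with a median of 0 and a highest value of 16.6 TP10k, and 28 cells reached 1 TP10k. *Tdgf1* and *Gdf3* were found in 2.55% and 3.68% of the ExE cells and *Fgf4* in none, which allows a share of up to 0.85% of cells with a value (the limit is set at 3 cells). Of the 51 cells with *Pou5f1*, 10 had at least 3 of the 4 endoderm genes, although only 16 ExE cells did so in all, and 9 had any of the 3 Epi genes. Other Epi markers were found in 90.2% (*Zfp42*), 68.6% (*Utf1* and *Dppa5a*), 11.8% (*Klf2*) and 5.88% (*Tcl1*) of these 51 cells. In the ExE cells without *Pou5f1*, *Zfp42* was as common (89.4%). *Utf1* was found in 34.1% of them, *Dppa5a* in 35.8%, *Klf2* in 1.32% and *Tcl1* in 0.331%. In the cells led by ExE markers *Pou5f1* was detected in 29 (11.8%), with a mean of 0.208 TP10k, and in the 31 led by Epi markers in 9, with a mean of 1.28 TP10k.

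*Pou5f1* was higher in the 2D trophoblast culture than in the ExE wells. It was detected in 90 iTSC (63.8%, 95% CI 55.3% to 71.7%), with a median of 0.231 and a highest value of 22.5 TP10k. The iTSC mean was 5.69-fold that of the ExE wells (log2 ExE over iTSC -2.51, -3.31 to -2.00 on single plates). Among cells with 5000 to 8000 genes, it was found in 60% of 45 iTSC and 17.1% of the ExE cells. The 13 iTSC led by Epi markers had a mean of 8.28 TP10k and those led by ExE markers 1.28, and between the cells led by their own markers the log2 value was -2.57. In iTSC, *Tdgf1*, *Gdf3* and *Fgf4* were found in 16.3%, 31.2% and 11.3% of cells. They were found in 23.3%, 45.6% and 16.7% of the iTSC with *Pou5f1* and in 3.92%, 5.88% and 1.96% of those without. Of the 90 iTSC with *Pou5f1*, 54 (60%) had any of the 3.

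**Figure D3:**
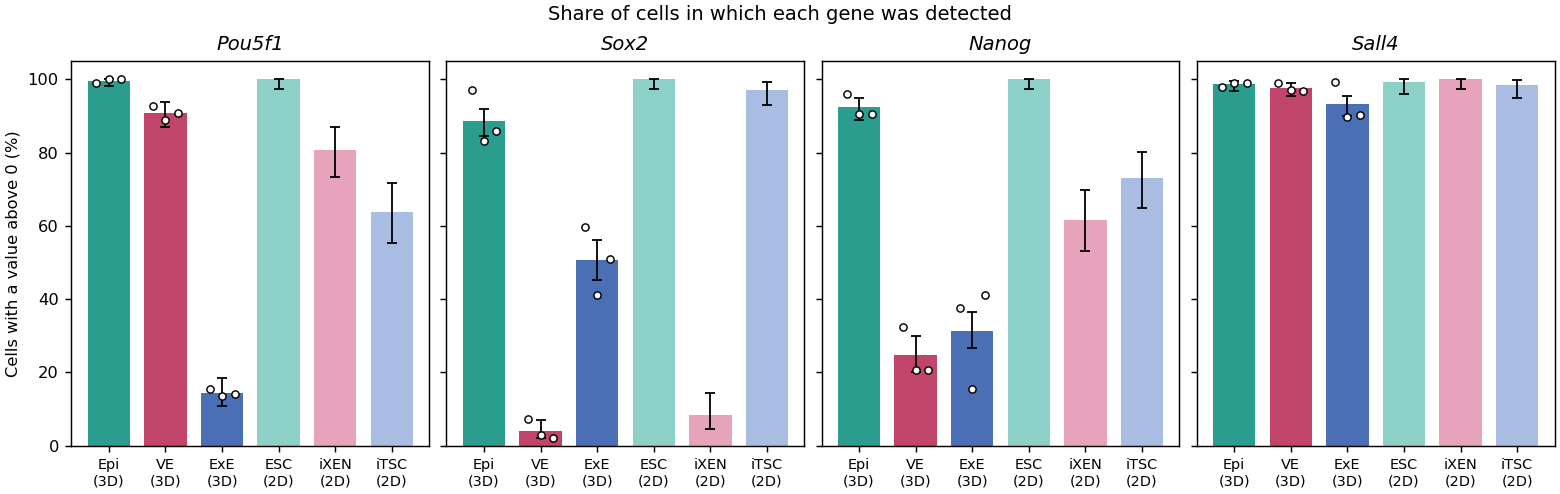
Share of cells with a value above 0 for each of the 4 genes (vertical axis, percent) in the 6 groups. Bars are all cells of a group, error bars are exact 95% intervals for counting error, and open circles are plates 3, 4 and 5 from left to right. *Sox2* is found in 4.13% of VE and 8.51% of iXEN cells but in 50.7% of ExE and 97.2% of iTSC cells.

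*Sox2* divided the extraembryonic groups the other way. The gene, on chromosome 3 from 34650405 to 34652461 (plus strand), averaged 1.43 TP10k in ESC, 1.05 in Epi, 0.812 in iTSC, 0.312 in ExE, 0.0229 in VE and 0.00499 in iXEN cells. Plate means ran from 0.882 to 1.28 in Epi, 0.248 to 0.353 in ExE and 0.00535 to 0.0503 in VE cells, again without overlap. The iTSC mean lay below the lowest Epi plate and the ESC mean above the highest. The iXEN mean lay just below the lowest VE plate.

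In Epi cells *Sox2* was detected in 88.5% (95% CI 84.5% to 91.8%), with 97% on the deeper plate 3 and 83.2% and 85.8% on plates 4 and 5. The cells ranged from 0 to 5.22 TP10k with a median of 0.841. All ESCs had it, with a median of 1.37 and a highest value of 5.61 TP10k. In ExE cells it was detected in 50.7% (95% CI 45.4% to 56%), with a median of 0.0652 and a highest value of 2.47 TP10k. In iTSC it was found in 97.2% (95% CI 92.9% to 99.2%), with a median of 0.655 and a highest value of 3.55 TP10k.

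The Epi mean of *Sox2* was 3.29-fold that of ExE cells (log2 1.72, 1.54 to 1.83 on single plates) and 32.2-fold that of VE cells (log2 5.01, 3.89 to 6.03). ExE cells had 9.78-fold the VE mean (log2 VE over ExE -3.29, -4.48 to -2.10). The iTSC mean was 2.55-fold that of ExE cells (log2 ExE over iTSC -1.35), and among cells with 5000 to 8000 genes all 45 iTSC and 57.3% of ExE cells had *Sox2*. In the cells led by ExE markers it was found in 53.7% and averaged 0.326 TP10k.

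Of the 13 ExE markers, 12 were found in a larger share of the ExE cells with *Sox2* than of those without, by a median of 11.1 percentage points over the list. *Ascl2*, a trophoblast transcription factor, went the other way (6.70% against 8.05%), and *Gata3* (54.7% and 52.3%) and *Plet1* (37.4% and 34.5%) were close. *Cdx2* was found in 68.7% of the ExE cells with *Sox2* and 54% of those without, and *Eomes* in 62.6% and 47.7%. Both are transcription factors of trophoblast stem cells and, like *Gata3*, transgenes of the line, and their values do not tell transgene from endogenous transcripts. The widest gaps were those of *Bmp8b*, which is no transgene here and encodes a BMP ligand of ExE, found in 42.5% and 23%, and *Wnt7b*, which encodes a WNT ligand, in 36.3% and 18.4%. The endoderm gene *Sox17* was found in no ExE cell with *Sox2*, which allows a share of up to 1.68% by the same limit of 3 cells, and in 14 of those without. Median genes detected were 5651 with and 5165 without *Sox2*, and the part of depth was not tested.

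In the endoderm groups *Sox2* was found in few cells and mostly at low levels. It was detected in 13 VE cells (4.13%, 95% CI 2.22% to 6.95%) and 12 iXEN cells (8.51%, 95% CI 4.48% to 14.4%). *Tdgf1*, *Gdf3* and *Fgf4* spanned 0.317% to 4.44% in VE and 0.709% to 14.9% in iXEN cells. They were picked as markers that stay in Epi cells and are no independent floor. Of the 13 VE cells with *Sox2*, 2 reached 1 TP10k, both on plate 4, with a highest value of 3.78 TP10k. In these 13 cells, 10 of the 11 VE markers were found in a smaller share than in the other VE cells. *Amn* was at 61.5% against 95.7%. All 8 Epi markers (*Gdf3* 30.8% against 3.31%) and 12 of the 13 ExE markers were found in a larger share. Median genes detected were 6441 and 5299, and the part of depth was not tested. In iXEN cells with *Sox2*, 5 of the 8 Epi markers were found in a smaller share. In the VE cells led by endoderm genes the mean of *Sox2* was 0.00448 TP10k and its share 3.22%, and the 2 VE cells led by Epi markers averaged 2.62 TP10k. *Sox2* lies within the longer noncoding gene *Sox2ot* on the same strand, whose reads could overlap it.

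*Nanog* was high in the pluripotent cells and low in the other 4 groups. The gene, on chromosome 6 from 122707489 to 122714633 (plus strand), averaged 11.2 TP10k in ESC and 3.83 in Epi cells, and 0.25 in iTSC, 0.111 in ExE, 0.0845 in VE and 0.0372 in iXEN cells. Plate means of Epi cells were 3.39 to 4.71. Those of ExE (0.0670 to 0.139) and VE cells (0.0475 to 0.154) overlapped, so over all cells these neighbours did not differ beyond the plate spread. The 2 VE cells led by Epi markers averaged 4.77 TP10k. Among cells led by their own markers, the means were 0.0544 TP10k in VE and 0.0993 in ExE cells. Log2 VE over ExE was then -0.76, and it was below 0 on each plate (-1.37 to -0.24). Processed copies of *Nanog* exist in the mouse genome, and neither *Nanog-ps1* nor *Nanog-ps2* has a row in the table. By the study's methods pseudogenes were filtered out after the alignment, although *H2-M6-ps*, a pseudogene by its symbol, has a row. Whether reads from copies of *Nanog* add to its low values cannot be told from the deposited values.

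*Nanog* was detected in 92.4% of Epi cells (95% CI 88.8% to 95%), with a median of 3.09 and a highest value of 19.4 TP10k, and in all ESCs, with a median of 10.6 and a highest value of 30.3 TP10k. The ESC mean was 2.91-fold that of Epi cells (log2 Epi over ESC -1.54, -1.72 to -1.24 on single plates), the largest of the 4 genes' differences between these groups. The Epi mean was 40.7-fold that of VE (log2 5.35, 4.38 to 6.36) and 31.8-fold that of ExE cells (log2 4.99, 4.67 to 5.46).

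Outside the pluripotent cells *Nanog* was often found but at very low levels. It was above 0 in 78 VE cells (24.8%, 95% CI 20.1% to 29.9%) and in 31.4% of ExE cells (95% CI 26.6% to 36.6%), and the median value of these positive cells was 0.143 and 0.123 TP10k, against 3.54 in positive Epi cells. In all, 4 VE and 6 ExE cells reached 1 TP10k, with highest values of 4.80 and 5.54. In iXEN it was above 0 in 87 cells (61.7%), and the highest value was 0.247 TP10k. The higher share in iXEN goes against its lower mean. At 5000 to 8000 genes, the shares were 31.4% of 35 iXEN cells and 28.7% of VE cells.

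In iTSC *Nanog* was above 0 in 73% of cells (95% CI 64.9% to 80.2%), and 8 cells reached 1 TP10k, with a highest value of 4.75. The iTSC mean was 2.16-fold that of ExE cells (log2 ExE over iTSC -1.11, -1.76 to -0.81 on single plates). Among the cells led by ExE markers in both groups, the means were 0.104 TP10k in iTSC and 0.0993 in ExE cells, and the log2 value moved to -0.07. The share of these ExE cells with *Nanog* was 36.2%. The 13 iTSC led by Epi markers averaged 1.69 TP10k.

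*Sall4* was found across all lineages. The gene, on chromosome 2 from 168748332 to 168767943 (minus strand), averaged 2.80 TP10k in VE, 2.67 in Epi, 2.20 in ESC, 1.85 in iXEN, 1.82 in ExE and 0.771 in iTSC cells. It was detected in 93.2% (ExE) to 100% (iXEN) of the cells of a group. Plate means of VE cells (2.34 to 3.45) overlapped those of Epi cells (2.49 to 2.91) and, at the lower end, those of ExE cells (1.45 to 2.39), and the ESC and iXEN means lay within the ExE range. Median *Sall4* was 2.37 TP10k in Epi, 2.50 in VE, 1.42 in ExE, 2.10 in ESC and 1.81 in iXEN cells, with highest values of 13.4, 11.6, 13.1, 5.01 and 4.38.

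The Epi over VE difference of *Sall4* was -0.07 on the log2 scale and changed sign between plates (-0.24 to 0.09). VE over ExE was 0.62 (0.53 to 0.69) and VE over iXEN 0.59 (0.33 to 0.89). The lowest *Sall4* was in iTSC, where all but 2 cells had it, with a median of 0.692 and a highest value of 2.84 TP10k. The ExE mean was 2.35-fold that of iTSC (log2 1.23, 0.90 to 1.62 on single plates), the opposite direction to *Pou5f1*, *Sox2* and *Nanog* in that comparison. In the ExE cells led by ExE markers it was found in 91.9% and averaged 1.57 TP10k, and the log2 value between cells led by their own markers was 1.07.

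The order of the 4 genes differed between lineages. On the TP10k scale, Epi cells and ESCs had *Pou5f1* above *Nanog*, then *Sall4* and *Sox2*. In VE cells *Pou5f1* (4.53) and *Sall4* (2.80) stood far above *Nanog* (0.0845) and *Sox2* (0.0229). In iXEN *Sall4* (1.85) and *Pou5f1* (1.6) led in the reverse order. In ExE cells *Sall4* (1.82) led, and *Pou5f1* (0.331) and *Sox2* (0.312) had overlapping plate means.

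To read these differences against the whole table, a gene was counted as past the fold where its means differed at least 4-fold (with 0.01 TP10k added) in the pool and on each of plates 3, 4 and 5. Genes present in under 10% of cells in both groups of a pair were left out. Between Epi and VE cells, *Sox2* and *Nanog* were past the fold towards Epi and none of the 4 towards VE. Of all 10662 genes compared, 3.85% were past it towards Epi and 3.56% towards VE. Between Epi and ExE cells, *Pou5f1* and *Nanog* were past it towards Epi, with a background of 1.95% towards Epi and 2.93% towards ExE. Between VE and ExE cells, *Pou5f1* was past it towards VE (background 1.61%) and *Sox2* towards ExE (background 3.12%). The last of these was lost with 0.1 TP10k added (log2 -1.75) and in cells with at least 4000 genes (-1.88 on the plate with the smallest difference).

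In the comparisons of 3D with 2D, 1 of the 4 genes was past the fold, *Pou5f1* towards iTSC against ExE cells. Background was 0.815% towards iTSC and 1.22% towards ExE. This call was at the limit on plate 5 (log2 -2.00) and was lost with 0.1 TP10k added (-1.82 on the plate with the smallest difference), among cells led by their own markers (-1.88 on such a plate) and with no minimum of genes (-1.78 in the pool). None of the 4 was past it between Epi cells and ESC (0.931% of genes towards Epi, 0.862% towards ESC), and none of the 3 that could be compared between VE and iXEN cells (0.22% towards VE, 0.531% towards iXEN), where *Sox2* was in too few cells. The comparisons share groups with each other and are not independent.

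**Figure D4:**
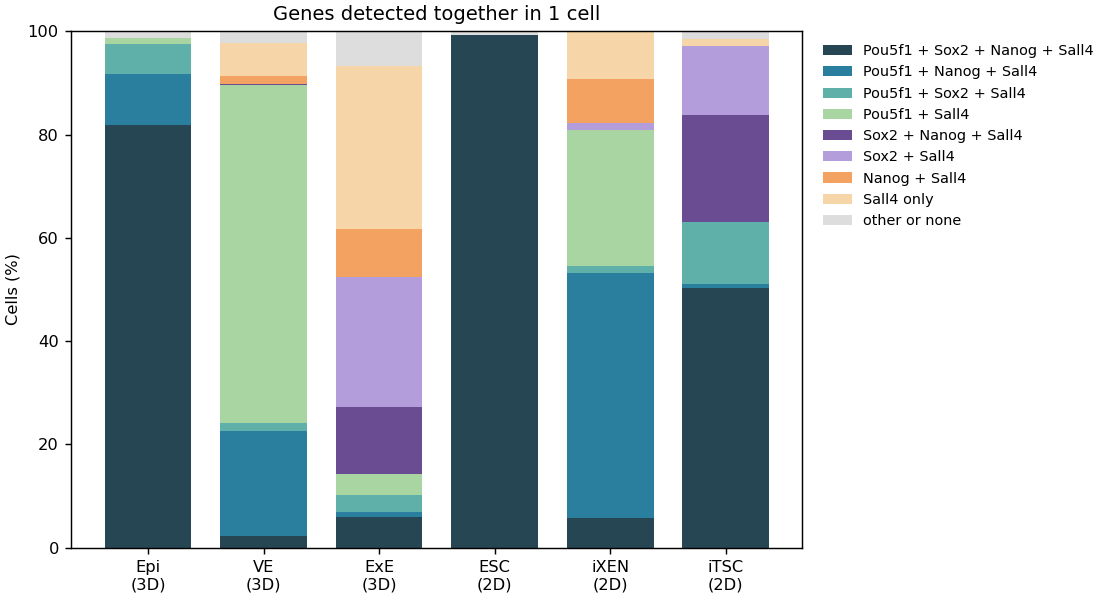
Share of cells (vertical axis, percent) of each group by which of the 4 genes were above 0 in the same cell. All 4 were found in 81.8% of Epi and 99.3% of ESC cells, *Pou5f1* with *Sall4* alone was the leading pattern of VE cells (65.4%), and ExE cells were led by *Sall4* alone (31.4%) and *Sox2* with *Sall4* (25.2%).

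Detection of the 4 genes in the same cell separated the groups by their pattern. All 4 were above 0 in 81.8% of Epi cells (95% CI 77.1% to 86%) and in all but 1 ESC. Of the other Epi cells, 31 lacked only *Sox2*, 18 lacked only *Nanog* and 1 lacked only *Sall4*. The cells with all 4 genes had a median of 4988 genes detected, against 4180 in those that lacked *Sox2* and 4094 in those that lacked *Nanog*. No Epi cell lacked all 4, and the single one without *Pou5f1* had only *Sox2*.

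VE cells kept *Pou5f1* without *Sox2*. *Pou5f1* and *Sall4* alone were found in 65.4% of cells (95% CI 59.9% to 70.6%) and *Pou5f1* with *Nanog* and *Sall4* in 64 cells (20.3%). All 4 were found in 7 cells (2.22%) and none in 3. Of the VE cells with *Pou5f1*, 4.20% had *Sox2* (95% CI 2.19% to 7.21%), against 88.5% of such Epi cells (95% CI 84.4% to 91.8%). *Nanog* was found in 25.2% of VE cells with *Pou5f1* (95% CI 20.3% to 30.6%) and in 20.7% of those without (95% CI 7.99% to 39.7%), and these intervals overlap. The iXEN cells had the same leading patterns in another order, 67 (47.5%) with *Pou5f1*, *Nanog* and *Sall4* and 37 (26.2%) with *Pou5f1* and *Sall4*.

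ExE cells most often had *Sall4* without *Pou5f1*. *Sall4* alone was found in 31.4% of cells (95% CI 26.6% to 36.6%), *Sox2* with *Sall4* in 89 cells (25.2%) and *Sox2*, *Nanog* and *Sall4* in 46 cells (13%). All 4 were found in 21 (5.95%) and none in 9. Of the 51 ExE cells with *Pou5f1*, 34 had *Sox2* (66.7%, 95% CI 52.1% to 79.2%), against 48% of those without (95% CI 42.3% to 53.8%), and *Nanog* was found in 49% and 28.5%. Median genes detected were 5729 and 5362.5 in these cells.

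In iTSC all 4 genes were found together in 71 cells (50.4%, 95% CI 41.8% to 58.9%), *Sox2*, *Nanog* and *Sall4* in 29 and *Sox2* with *Sall4* in 19. *Nanog* was found in 73 of 90 iTSC with *Pou5f1* (81.1%, 95% CI 71.5% to 88.6%) and 30 of 51 without it (58.8%, 95% CI 44.2% to 72.4%). Across iTSC, Spearman's rho of *Pou5f1* with *Nanog* was 0.38 and with *Sox2* 0.26. In Epi cells, where all 4 are present, rho lay between -0.03 and 0.15 over the 6 pairs, and in ESCs between 0.05 and 0.21.

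Of 27 other genes of the pluripotency network, ESC transcription factors and signalling genes listed by their known role, a large part was higher in Epi cells. Between Epi and VE cells, 12 of 27 were past the fold towards Epi and 0 towards VE, with a median log2 Epi over VE of 2.06 beside 0.06 over all genes compared. They were *Tdgf1*, *Gdf3*, *Fgf4*, *Utf1*, *Esrrb*, *Klf2*, *Nr0b1*, *Prdm14*, *Nodal*, *Lefty1*, *Lefty2* and *Otx2*. Between Epi and ExE cells 14 of 27 were past it towards Epi and 0 towards ExE, with a median of 2.42 beside -0.09. Over all genes compared, 3.85% and 1.95% were past it towards Epi in these pairs. The list holds all 8 Epi markers, among them *Tdgf1*, *Gdf3* and *Fgf4*, which were picked as genes that stay in Epi cells. The counts towards Epi are thus partly set by the choice of genes and are no independent result.

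Part of this network was kept in endoderm as *Pou5f1* was. *Dppa5a* averaged 237.7 TP10k in Epi, 70.8 in VE and 3.85 in ExE cells, and *Tcl1* 2.43, 0.812 and 0.00836. Both were past the fold towards VE between VE and ExE cells, together with *Klf4*, 3 of the 20 that could be compared (background 1.61%), with a list median of 0.57 beside -0.14. *Esrrb*, an orphan nuclear receptor shared by ESCs and trophoblast stem cells, had the pattern of *Sox2* and was the 1 network gene past the fold towards ExE in that comparison (background 3.12%), at 0.473 TP10k in ExE, 0.0594 in VE, 0.785 in Epi and 0.00235 in iXEN cells.

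**Figure D5:**
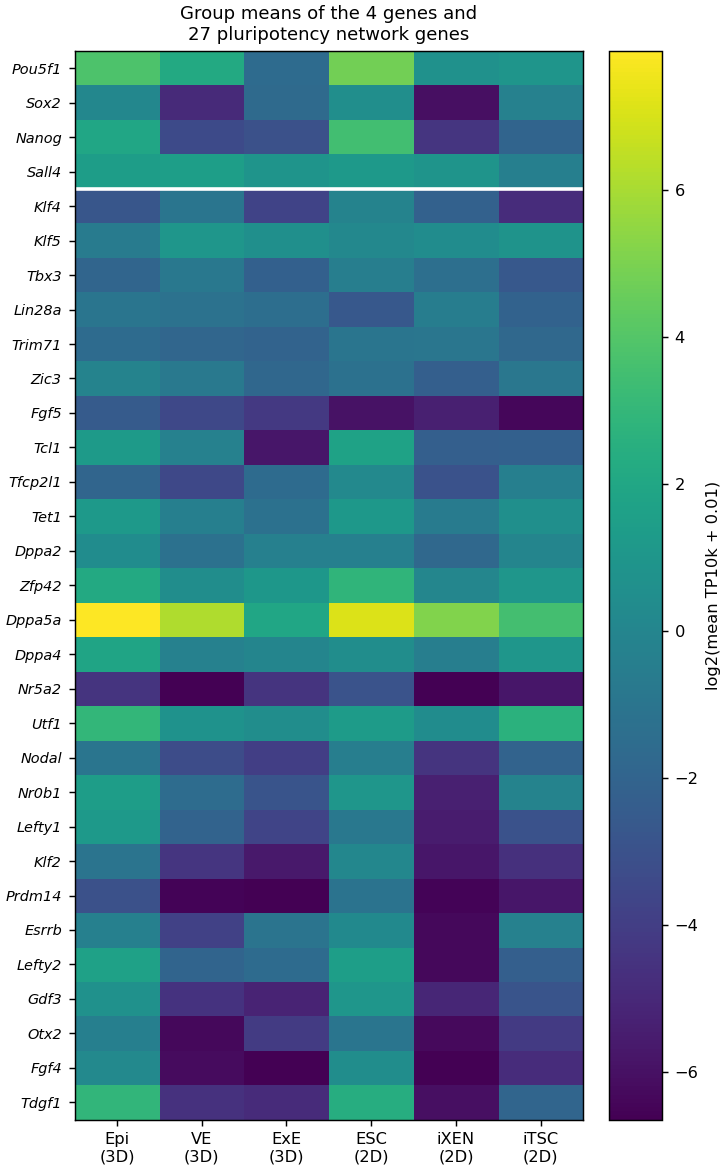
Group means of the 4 genes (above the white line) and 27 pluripotency network genes, as log2(mean TP10k + 0.01) by colour, with columns for the 6 groups. The network genes are ordered by their difference between VE and Epi cells, from *Klf4*, which is higher in VE, to *Tdgf1*, which is 7.47 log2 units higher in Epi cells.

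Between Epi cells and ESC, 1 network gene was past the fold towards Epi, *Fgf5*, a growth factor of the later epiblast, and 2 towards ESC, *Klf4* and *Tfcp2l1*, factors of naive cells, against backgrounds of 0.931% and 0.862%. The median over the list was -0.27 on the log2 scale, beside 0.10 over all genes. Between VE and iXEN 4 of 21 compared were past it towards VE (*Esrrb*, *Nr0b1*, *Lefty1* and *Lefty2*; background 0.22%) and 0 towards iXEN, with a median of 0.56 beside 0.02. Between ExE cells and iTSC 4 of 25 were past it towards iTSC (*Gdf3*, *Utf1*, *Nr0b1* and *Tcl1*; background 0.815%) and 0 towards ExE, with a median of -0.92 beside 0.02.

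Relatives of the 4 genes by family partly marked other lineages. Of 14 in the table, 10 could be compared between Epi and VE cells. *Pou2f2*, *Sox11* and *Sox15* were past the fold towards Epi, and *Sox7* and *Sox17* towards VE, against backgrounds of 3.85% and 3.56%. The median log2 Epi over VE of the 10 was 1.71 beside 0.06 over all genes. *Sox15*, a relative of *Sox2* in ESCs, averaged 0.776 TP10k in Epi, 0.0151 in VE, 0.262 in ExE and 0.614 in iTSC cells. In VE cells the endoderm members *Sox17* (1.70 TP10k) and *Sox7* (1.0) were present beside *Pou5f1*. *Pou2f1* (OCT1), the widely expressed relative of *Pou5f1*, was at 0.366 to 0.661 TP10k in every group. *Sall1* was at 0.0707 to 0.340 TP10k, below *Sall4* in every group.

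The genes most like each member were named by Pearson's r of mean ln(TP10k + 1) over 12 points, the 3 well blocks on 3 plates and the 3 cultures, among 14183 genes. The points share groups and plates, and r is given as a description. For *Pou5f1* they were *Tcl1*, *Stmn1*, *Zscan10*, *Ppp1r1a* and *Lztr1* (r from 0.95 to 0.98). *Zscan10*, a zinc finger gene of ESCs, averaged 0.802 TP10k in Epi, 0.433 in VE and 0.0640 in ExE cells. For *Sox2* they were *Ddx39b*, *Gsta4*, *Msh6*, *Cep55* and *Gna15* (0.97 to 0.98).

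For *Nanog* they were *2900011O08Rik*, *Pdcl2*, *Ccnd1*, *Morc1* and *H2-M6-ps* (r from 0.99 to 1.0). *Ccnd1*, which encodes cyclin D1, averaged 1.27 TP10k in ESC and 0.671 in Epi cells and at most 0.0814 in the other groups. For *Sall4* they were *Pbdc1*, *Syncrip*, *Yme1l1*, *Nras* and *Ppip5k2* (0.90 to 0.93). Among the members themselves, r was 0.88 for *Nanog* with *Pou5f1* and with *Sox2*, 0.66 for *Pou5f1* with *Sox2*, and -0.07 for *Sox2* with *Sall4*. The named genes depend on the scale. With the log2 of the group mean, 3, 0, 1 and 3 of the 5 genes stayed for *Pou5f1*, *Sox2*, *Nanog* and *Sall4*, and over the 9 points of the 3D pool alone 2, 0, 0 and 0.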

How the data were processed

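SMART-seq2 libraries of single sorted cells came from 1 pool of RtL-embryoids (plates 3, 4 and 5) and from 3 2D cultures. By the study's methods, the authors pseudoaligned reads to GRCm38 transcripts (Gencode vM16) using kallisto and left out mitochondrial, ribosomal and pseudogenes. The deposited TPM were summed to 20999 genes, fewer than the features that the paper names. A pseudogene by its symbol, *H2-M6-ps*, is among these genes, so the filter did not take out every such symbol. The submitters' processing notes also name bcl2fastq 2.20. TPM do not keep the number of reads, so depth is unknown and cells could not be thinned.

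From the deposited TPM, wells with 2500 or more genes above 0 were used: 314 of 382 Epi, 315 of 383 VE, 353 of 384 ExE, 142 of 317 ESC, 141 of 182 iXEN and 141 of 283 iTSC wells (39 wells held no values). Cells with 5000 to 8000 genes numbered 138, 202, 211, 6, 35 and 45. Values were scaled to 10000 per cell. Groups were compared by shares, means and log2 ratios of means + 0.01 TP10k, with the values on each plate. Each group is 1 sample, so no test was made.

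The 4 genes, the marker, network and family lists, and the comparisons were chosen with earlier results of these data known. Genes named in the text are these, and for each member the 5 genes of most similar pattern. *L1td1* and *Sox1* of the lists were not analysed here. On simulated data, random parts of the VE cells with 200 genes changed 8-fold among 10148, 88% of the raised and 81% of the lowered genes were past the fold, and 0 of 9948 unchanged ones. Both parts shared culture, plates and depth, so this says nothing about false calls between groups that differ in them. The changed genes were drawn from more widely detected genes than the rule admits. Alternatives were other minimums of genes, a window of 5000 to 8000 genes, cells led by their own markers, detection from 1 TPM, other pseudocounts, scales and folds, and leaving out each plate. Upstream sequences were read from RefSeq (GRCm38.p6, no entry for *Sall4*) and gene positions from Gencode vM21. Python 3.11.15, numpy 2.4.6, pandas 2.3.3, scipy 1.17.1 and matplotlib 3.10.9 were used.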

Additional observations from a re-analysis of the deposited data

Results flagged for a closer look

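*Klf4*, a factor of naive pluripotency, differed in opposite directions between the endoderm and the pluripotent group in 3D and in 2D. On the log2 scale it was 1.77 higher in VE than in Epi cells (1.40 to 2.19 on single plates), and iXEN over ESC was -1.96. Its means were 0.496 TP10k in VE and 0.221 in iXEN cells (log2 VE over iXEN 1.14). In Epi cells and ESC they were 0.138 and 0.884 (log2 Epi over ESC -2.59), so the pluripotent groups lay further apart than the endoderm groups. *Utf1*, a chromatin factor of ESCs, differed in opposite directions between the trophoblast and the pluripotent group. The log2 value was -2.52 for ExE over Epi cells (-2.65 to -2.35 on single plates) and 1.32 for iTSC over ESC. These are values without replicates, and the differences were not tested.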

How the results depend on the processing

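No ratio of the 4 genes that was past the fold changed direction under any alternative run, although *Sox2* VE below ExE and *Pou5f1* ExE below iTSC fell short of it under 2 and 3 of the 4 alternatives given with them in the report. Read numbers are not known, and shares were compared at similar numbers of detected genes in the window of 5000 to 8000 genes. Each group is 1 sample, so the spread below is that of plates or of counting alone. The 3D groups share plates 3, 4 and 5, and the report gives their differences within each plate. No paired analysis was possible because the results come from no test.

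From 4000 genes up, *Pou5f1* and *Sall4* were in 100% of Epi, *Sall4* in 99.6% of VE and 100% of ESC cells, and log2 VE over ExE of *Sall4* was 0.72. With no minimum of genes, which adds wells with almost no RNA, the shares for *Pou5f1*, *Sox2*, *Nanog* and *Sall4* were 85.6%, 74.3%, 78.7% and 83.5% in Epi, 52.8%, 50%, 52.8% and 49.3% in ESC and 35.3%, 53.7%, 40.8% and 55.3% in iTSC wells. *Pou5f1* and *Sall4* then stood at 75.5% and 82.8% in VE, *Sall4* at 86.2% in ExE, and *Pou5f1*, *Nanog* and *Sall4* at 67.5%, 51.5% and 84% in iXEN wells. The log2 values there were -1.01 for *Sall4* Epi over VE, 1.56 for *Sall4* VE over ExE, -1.72, 0.26, -1.15 and -0.49 for the 4 genes Epi over ESC, -0.092 and 1.69 for *Sox2* and *Sall4* VE over iXEN, and -1.78, -0.58 and -0.47 for *Pou5f1*, *Sox2* and *Nanog* ExE over iTSC. *Sox2* and *Sall4* thus changed sign between Epi and ESC, as did *Sox2* between VE and iXEN.

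In cells led by their own markers, log2 was 0.84 for *Sall4* VE over ExE, -0.049 for *Sox2* VE over iXEN and -0.066 for *Nanog* ExE over iTSC. At 5000 to 8000 genes the 4 genes were in 100%, 93.5%, 97.8% and 100% of Epi cells, *Sall4* in 100% of VE, ESC and iTSC cells, *Sox2* and *Sall4* in 57.3% and 97.2% of ExE cells, *Nanog* in 31.4% of iXEN, and *Sox2* and *Nanog* in 100% and 57.8% of iTSC cells. Leaving out each plate, Epi *Pou5f1* ranged from 99.5% to 100%, ExE *Sall4* from 90.04% to 94.9% and ExE *Nanog* from 26.8% to 39.4%, the last without plate 4. Log2 VE over ExE of *Nanog* turned to 0.11 without plate 3, and Epi over VE of *Sall4* to 0.022 without plate 5. None of the values that changed sign was past the fold.

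A pseudocount of 0.1 TP10k gave log2 values for *Sox2* of 3.22 (Epi over VE), 1.48 (Epi over ExE) and -1.75 (VE over ExE), and 4.22 for *Nanog* Epi over ExE. Differences between means of each cell's log2(TP10k + 1), which weigh low values less by construction, were 0.89 and 1.88 for *Sox2* and *Nanog* Epi over VE, 3.62, 0.58 and 1.86 for *Pou5f1*, *Sox2* and *Nanog* Epi over ExE, 1.91, -0.31 and 0.51 for *Pou5f1*, *Sox2* and *Sall4* VE over ExE, 0.085 for *Sall4* Epi over ESC, 1.03, 0.012 and 0.030 for *Pou5f1*, *Sox2* and *Nanog* VE over iXEN, and -0.75, -0.46, -0.11 and 0.51 for the 4 genes ExE over iTSC.

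The 12 counts of all genes past the fold came to 0.111 to 0.466 times their value with that pseudocount and to 2.57 to 6.13 times with a 2-fold limit. Without a filter on low values 2 counts grew by over 1.5 times, to 1.88 times towards iXEN against VE and 1.6 times towards iTSC against ExE. TPM as deposited and detection from 1 TPM moved none of the shares and ratios beyond their spread. Where no construction is named, the cause was not tested.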
